A study of Mus musculus with 6 samples.

Results

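The genes described here are unnamed mouse genes, with a symbol of Gm and digits or one ending in Rik, that overlap a named gene on the opposite DNA strand and no named gene on their own strand. Of the 24379 genes in the count table, 3620 unnamed genes had a summed count of at least 30 over the 6 libraries. Of these, 1183 met the rule, 779 overlapped a named gene on their own strand and 1658 overlapped none. The 1183 members comprised 875 Gm and 308 Rik symbols. Each was set beside its partner, the named gene on the other strand that it overlapped over the most bases. The partners were 1088 different genes, and 184 members shared a partner with another member, so the members are not all independent of each other.

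RNA was measured in RAW264.7 cells, a mouse line with macrophage character, in 3 libraries labelled HFCS, for high-fructose corn syrup, which sweetens foods with fructose and glucose, and 3 labelled WT, called control here. All samples carry a time of 18 h. The HFCS dose reads 140 mM in titles and treatment labels but 170 mM in source names, and the sources used here do not give what the control cells received. The growth protocol that names HFCS is given for all 6 samples, so the groups rest on the titles and treatment labels. No genetic change is labelled for either group. The labels do not say that replicates were separate cultures, so each p-value reflects variation among these 6 libraries that may be technical.

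Many mammalian genes are accompanied by a transcript read from the other strand. Such antisense RNAs may start close to the promoter of the coding gene and run away from it, may run into its 3′ end, or may lie wholly inside it, and some are known to act on the overlapping gene while most have no known function. Unnamed gene models also hold processed pseudogenes, which are intronless copies of messenger RNAs inserted elsewhere in the genome, and these can land inside an unrelated gene. The sources used here do not give the strand setting of the read counting. The reads of a member and of its partner therefore cannot be told apart where they overlap, in exons or introns of the partner.

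The promoter is where a member and its partner come closest when their 5′ ends overlap. For 4 such pairs in which both genes passed the test described below, chosen after their values were seen, the RefSeq promoter of the member is printed 5′ to 3′ on the member's strand (build GRCm38.p6, 250 bases before to 50 after the start), with the bases that lie in the span shared with the partner in capitals. The windows are chr6:31220101-31220400 on the plus strand for 2210408F21Rik, chr6:67036349-67036648 on the plus strand for E230016M11Rik, chr8:11477679-11477978 on the plus strand for E230013L22Rik, and chr8:124862980-124863279 on the minus strand for 2810004N23Rik. In the first 3, RefSeq starts the member at the listed 5′ end. These windows lie wholly within the partner's span, so their lower-case bases are outside the member but not outside the partner. For 2810004N23Rik the nearest RefSeq start lies 91 bases away, at 124863029. The span shared with its partner runs from 124863033 to 124863120, so from that start the member would not reach the partner. In its window, the lower-case bases before the capitals also lie in the partner's span.

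2210408F21Rik: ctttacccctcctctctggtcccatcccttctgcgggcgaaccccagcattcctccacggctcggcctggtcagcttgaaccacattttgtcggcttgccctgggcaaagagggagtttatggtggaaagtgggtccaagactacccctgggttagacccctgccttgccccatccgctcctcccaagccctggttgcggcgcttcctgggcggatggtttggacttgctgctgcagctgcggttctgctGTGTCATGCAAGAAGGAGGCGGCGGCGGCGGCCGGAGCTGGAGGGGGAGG
E230016M11Rik: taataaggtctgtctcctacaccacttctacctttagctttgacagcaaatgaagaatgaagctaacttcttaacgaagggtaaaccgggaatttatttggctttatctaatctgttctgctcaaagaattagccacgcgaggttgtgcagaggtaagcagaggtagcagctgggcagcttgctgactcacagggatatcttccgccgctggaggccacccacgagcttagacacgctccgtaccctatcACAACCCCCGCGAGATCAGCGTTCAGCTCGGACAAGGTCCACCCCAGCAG
E230013L22Rik: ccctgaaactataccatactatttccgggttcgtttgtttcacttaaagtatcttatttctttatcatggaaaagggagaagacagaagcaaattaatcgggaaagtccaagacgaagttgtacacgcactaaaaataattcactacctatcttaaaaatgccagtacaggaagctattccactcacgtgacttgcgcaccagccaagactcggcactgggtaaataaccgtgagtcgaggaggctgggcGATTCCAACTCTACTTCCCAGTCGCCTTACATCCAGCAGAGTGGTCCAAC
2810004N23Rik: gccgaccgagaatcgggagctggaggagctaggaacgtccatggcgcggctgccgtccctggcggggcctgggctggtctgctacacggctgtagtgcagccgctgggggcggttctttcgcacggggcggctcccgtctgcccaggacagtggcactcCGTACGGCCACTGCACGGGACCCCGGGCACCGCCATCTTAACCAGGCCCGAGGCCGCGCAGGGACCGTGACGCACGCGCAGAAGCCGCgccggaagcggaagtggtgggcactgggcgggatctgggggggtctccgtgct

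RefSeq promoters were found by symbol for 377 of the 1183 members. In all, 6 short motifs were counted on both strands, with no overlap between motifs removed. The GC box GGGCGG occurred once in the promoter of 2210408F21Rik and 3 times in that of 2810004N23Rik, and 35.7% of 32851 promoters of the same length held it. The AP-1 site TGANTCA occurred once in that of E230016M11Rik (7.81% of promoters) and the E-box CACGTG once in that of E230013L22Rik (7.15% of promoters). The TATA box TATAAA, the CCAAT box CCAAT and the CRE TGACGTCA were not found in these 4 windows, and 13.6%, 37.4% and 1.79% of promoters held them.

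The sequences of 2 further members carry results below. Gm23935 is annotated as a miRNA gene of 57 bases at chr16:11144125-11144181 on the plus strand, inside Zc3h7a, and had the highest count of any member. Gm6736, a processed pseudogene at chr12:13455023-13455970 on the minus strand inside Nbas, copies Akr1b3, the aldose reductase that turns glucose into the osmolyte sorbitol. Over 948 aligned bases, Gm6736 and Akr1b3 differed at 5. The 120 bases shown are positions 593 to 712 of the Gm6736 transcript and 666 to 785 of an Akr1b3 transcript, in its coding sequence (GENCODE M21), with the 2 differing bases in capitals.

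Gm23935: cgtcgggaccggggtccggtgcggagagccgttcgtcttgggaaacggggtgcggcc
Gm6736: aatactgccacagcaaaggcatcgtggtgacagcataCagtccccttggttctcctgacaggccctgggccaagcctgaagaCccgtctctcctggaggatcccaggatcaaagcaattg
Akr1b3: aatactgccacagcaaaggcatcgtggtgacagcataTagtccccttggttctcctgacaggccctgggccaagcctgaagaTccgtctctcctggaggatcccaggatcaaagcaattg

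In 664 pairs the member lay within its partner, in 246 the 5′ ends overlapped, in 238 the 3′ ends overlapped, and in 35 the partner lay within the member. The overlap had a median of 1876 bases and ranged from 3 to 147237. By annotation 524 members were antisense genes, 172 processed pseudogenes, 119 processed transcripts, 115 unconfirmed transcripts of the TEC class, 86 protein-coding genes and 85 lincRNAs. Of the partners, 1157 of the 1183 listed beside members were protein coding. Where exon positions could be compared, 449 of 1159 members shared no exon base with the partner.

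The members were low in abundance. Their median level was 1.05 CPM (counts relative to the library's size, with TMM factors), 571 (48.3%) had a mean under 1 CPM and 84 reached 10 CPM. Per kilobase of exon, the median member stood at 12.4% of its partner, and 185 members were denser than the partner. Total counts per library were 13108485 to 15340255, of which members took 0.459 to 0.541%. At this depth 3 counts correspond to 0.19 to 0.223 CPM, so small differences in most members were not detectable. The macrophage markers Adgre1, at 30.1 to 66.8 CPM, and Lyz2, at 707 to 934 CPM, were present, and Mertk was near 0 with 6 counts in all. Csf1r, Cd68, Itgam, Spi1 and Fcgr1 were present too, at 5.01 to 397 CPM. Csf1r and Cd68 were lower in HFCS, by 0.67 and 0.42 on the log2 scale (edgeR, adjusted p under 0.05). Adgre1, Lyz2, Itgam, Spi1 and Fcgr1 were higher, by 0.35 to 1.56 in the same test. Of markers for other cells, Cd3e, Cd3d, Cd79a, Pdgfra, Col1a1 and Cpa3 stayed under 1 CPM in each library. The endothelial markers Pecam1 and Cdh5 were at 0.443 to 3.38 CPM and were lower in HFCS. Their part in the results was not tested. Epcam, Krt18, Cdh1, Col1a2 and Kit were not analysed here.

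Members more often fell than rose in the HFCS-labelled libraries. In the test of all genes (edgeR, adjusted p under 0.05), 57 of 827 tested members were higher and 219 lower, while 551 did not pass. Over all 14360 tested genes the shares were 22.4% higher and 22.5% lower, 44.9% in all. The median log2 fold change was -0.33 for tested members and -0.00 for all tested genes. The other 356 members had too few counts to be tested, and 236 tested members had at least 10 counts in every library of only 1 group. Without the filter, where each of the 1183 members was fitted, 66 were higher and 234 lower, against 14.5% and 12.8% of all 24379 genes. Only 15995 of these genes had a summed count of at least 30, so the shares are not matched to the members by count. The median log2 fold change without the filter was -0.37 for members and 0.01 for genes with a summed count of at least 30. The libraries of the groups did not overlap for 107 members in the higher and 363 in the lower direction, against 25.2% and 26.4% of all genes with such a count.

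The other unnamed genes also leaned downward. Among those overlapping a named gene on their own strand, 28 were higher and 180 lower of 517 tested, with a median log2 fold change of -0.54. Among those overlapping no named gene, 130 were higher and 242 lower of 1256, with a median of -0.12. Named genes that carry the suffix os for opposite strand had 5 higher and 11 lower of 48 tested. All named genes had 3003 higher and 2581 lower of 11744. In a split by level made after the values were seen, 21 of 453 members with a mean of 1 to 5 CPM were higher and 128 lower, and of 1480 named genes in that band 260 were higher and 291 lower. At 5 CPM or more, 26 members were higher and 54 lower of 159, and 2685 named genes were higher and 2216 lower of 9771. The median log2 fold change in that band was -0.06 for members and 0.03 for named genes. At 1 to 5 CPM it was -0.39 for members and -0.06 for named genes. Under 1 CPM, 10 of 215 tested members were higher and 37 lower, and of 493 tested named genes 58 were higher and 74 lower. The plot of fold changes shows the members and the 3 other sets.

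**Figure D1:**
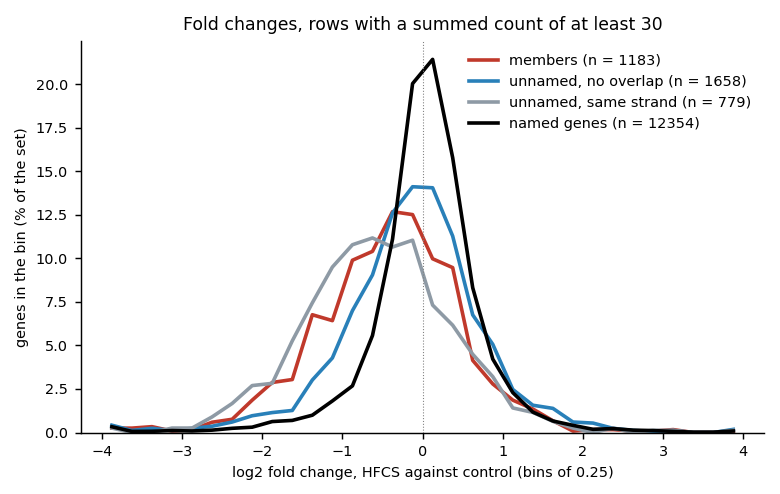
Percent of genes in bins of log2 fold change (HFCS against control, edgeR without a filter on low counts) for the 1183 members, the 2 other sets of unnamed genes and named genes, each with a summed count of at least 30. The curve of the members lies left of that of the named genes, with a median of -0.37, and the unnamed genes on the same strand as their host lie further left.

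By arrangement, members within their partner had 20 higher and 136 lower of 436 tested and a median log2 fold change of -0.46. With overlapping 5′ ends there were 16 higher and 42 lower of 180, with a median of -0.26. With overlapping 3′ ends there were 16 higher and 34 lower of 186, with a median of -0.16. The 25 tested members that enclose their partner had 5 higher and 7 lower and a median of 0.13. Over all tested genes 22.4% were higher and 22.5% lower, with a median of -0.00. The antisense biotype had 17 higher and 102 lower of 362, and protein-coding members 10 higher and 17 lower of 71. The difference between arrangements was not tested.

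The 6 largest rises were taken from members past the threshold, at 1 CPM or more in 1 group, with groups that did not overlap. Their passing and the parting of their groups follow from that choice. All 6 were low in count. Each had at least 10 counts in every library of the HFCS group alone, and met the filter through it. 4931431B13Rik (chr7:128192050-128203328), a processed transcript within Itgad, an integrin alpha subunit of macrophages, had 14, 13 and 21 counts in the HFCS-labelled libraries (replicates 1 to 3, an order kept throughout) and 1, 0 and 0 in the control libraries. The summed counts of 48 and 1 give a ratio of 48.1, with an exact 95% interval from 8.23 to 1940 that covers counting error only. The partner Itgad rose as well, with 11, 14 and 12 against 2, 2 and 2 counts and a log2 fold change of 2.48 ± 0.51 (SE, edgeR adjusted p = 0.00258).

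Gm13205 (chr4:148947492-148948914), antisense within Casz1, a zinc finger transcription factor, had 38, 33 and 35 counts in HFCS and 3, 4 and 4 in control libraries. As the choice required, every HFCS-labelled library lay above every control, and the log2 fold change was 3.16 ± 0.38 (SE, edgeR adjusted p = 9.06e-05). Casz1 moved the same way, by 2.01 ± 0.41 (edgeR adjusted p = 0.00245), and the ratio of the 2 genes did not pass (limma adjusted p = 0.103). Gm45752, which encloses Dpep3, a dipeptidase, had 21, 25 and 26 against 8, 2 and 4 counts. 1700047K16Rik, within the zinc finger gene Zfp672, had 24, 23 and 22 against 3, 8 and 3. Both rose, by 2.26 ± 0.45 and 2.20 ± 0.45 on the log2 scale (edgeR adjusted p = 0.00204 and 0.00271), and so did their partners, by 3.54 and 1.03.

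Gm10676, whose 5′ end overlaps that of Mypop, had 25, 41 and 31 counts against 18, 9 and 3, a log2 fold change of 1.60 ± 0.47 (SE, edgeR adjusted p = 0.017). Mypop did not pass, at 0.07, and the ratio of member to partner rose by 1.79 ± 0.51 (limma adjusted p = 0.0127). Without HFCS replicate 2 the edgeR adjusted p of Gm10676 was 0.0687, and without control replicate 2 it was 0.0535.

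The 6 largest falls under the same limits included members with more counts, and 1 of them, Gm6736, is described with its copy below. Gm13091 (chr4:150566869-150568544), antisense within Rere, a transcriptional co-repressor, had 16, 34 and 20 counts in HFCS and 205, 278 and 299 in control libraries, or 1.56 ± 0.58 against 18.6 ± 3.79 CPM (mean ± SD, n = 3 each). Its log2 fold change was -3.56 ± 0.25 (SE, edgeR adjusted p = 2.59e-06). Rere itself fell by 1.71 on the log2 scale, from 11086, 10124 and 9915 counts to 2976, 3477 and 3576, and the ratio to it fell by 1.87 ± 0.26 (limma adjusted p = 6.8e-05).

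Gm16353 (chr9:75132959-75134181), a processed pseudogene within Myo5a, the unconventional myosin Va, had 8, 21 and 10 counts in HFCS and 123, 130 and 99 in control libraries. It fell by 3.24 ± 0.30 on the log2 scale (SE, edgeR adjusted p = 1.43e-05), and Myo5a fell by 0.37. Gm17409 (chr2:58470116-58471077), within the activin receptor gene Acvr1, had 1, 2 and 1 against 29, 24 and 17 counts. It fell by 4.08 ± 0.53 (edgeR adjusted p = 0.000143), while Acvr1 rose by 0.68. Gm16353 and Gm17409 had at least 10 counts in every library of the control group alone, and met the filter through it.

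4833427G06Rik, within Btg4, had 0, 2 and 3 counts in HFCS and 26, 12 and 15 in control libraries, and fell by 3.39 ± 0.65 (SE, edgeR adjusted p = 0.00177). Btg4 fell by 3.96. 6530413G14Rik encloses Acp5, the tartrate-resistant acid phosphatase of osteoclasts and macrophages, and had 2, 2 and 2 counts against 18, 15 and 14, a fall of 2.97 ± 0.48 (edgeR adjusted p = 0.000638), with Acp5 down by 1.16. 4833427G06Rik and 6530413G14Rik had at least 10 counts in every library of the control group alone, and met the filter through it. The plot shows the 12 members chosen under the limits above, which required groups that did not overlap.

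**Figure D2:**
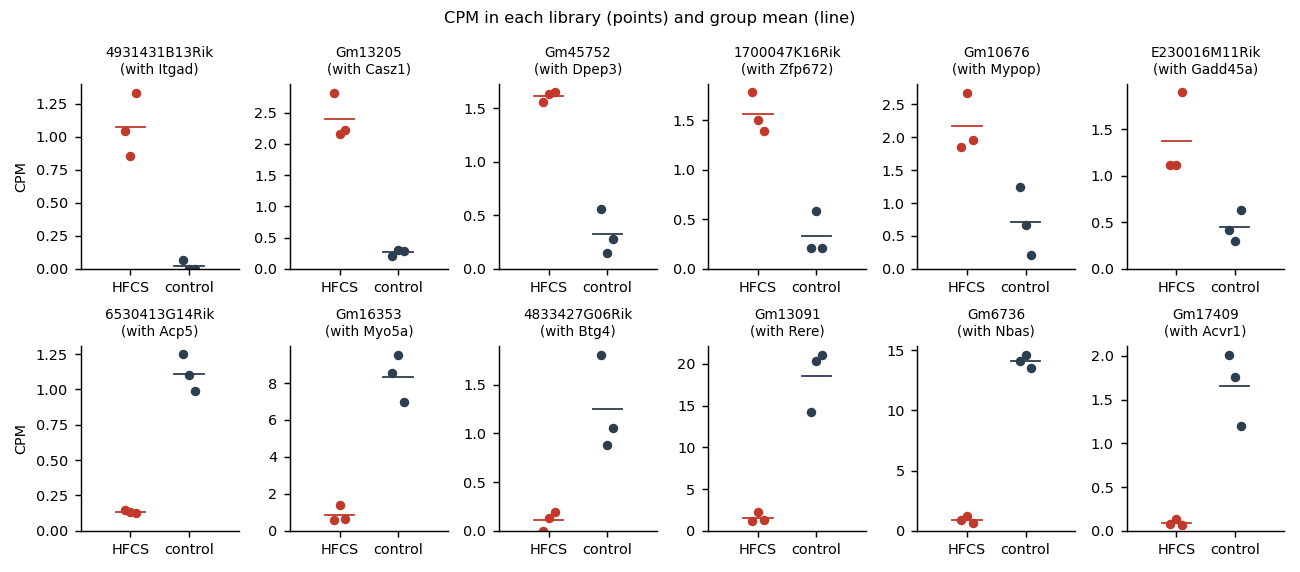
CPM of the 12 members with the largest changes in each library (points; the line is the mean of 3 libraries), HFCS in red and control in dark blue, each panel titled with the member and its partner and with its own axis from 0. The upper row is higher in every HFCS-labelled library and the lower row in every control-labelled library, as the choice required.

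Members and partners were tested directly on their ratio within each library, which needs no scaling between libraries. In 792 pairs both genes passed the filter. The ratio passed (limma, adjusted p under 0.05) in 244 of them, 40 higher and 204 lower, against 37.3% of the 2216 opposite-strand pairs of any kind. Without control replicate 2 the ratio passed for 162 members, 132 of them lower, and without HFCS replicates 1 and 3 the higher ratios numbered 25 and 26. Both genes passed the edgeR test in 139 pairs, in the same direction in 107 and in opposite directions in 32. Of 1424 other opposite-strand pairs, both genes passed in 262, in the same direction in 156. In 27 of the 32 member pairs with opposite directions the member fell and the partner rose, and in 5 the member rose and the partner fell. Across the 792 pairs, log2 fold changes of member and partner had a Pearson correlation of 0.37 and a Spearman correlation of 0.31, and across 1218 opposite-strand pairs of named genes 0.23 and 0.15. These correlations run over gene pairs that share libraries, and some partners occur more than once.

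Where the partner rose, 27 of 196 tested members rose and 27 fell, in a split made after the values were seen. Where the partner fell, 5 rose and 80 fell of 191, and where it did not pass, 20 rose and 106 fell of 405. The shares that fell were 13.8% with a risen partner, 41.9% with a fallen partner and 26.2% where the partner did not pass. Over all 827 tested members 6.89% rose and 26.5% fell, and over all tested genes 22.4% and 22.5%. Of 53 partners with more than 1 tested member, both members fell on 3, both rose on 1, and 1 rose while the other fell on 2. On 24 some members passed and others did not, and on 23 none passed. The plot of member against partner shows the 4 arrangements apart.

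**Figure D3:**
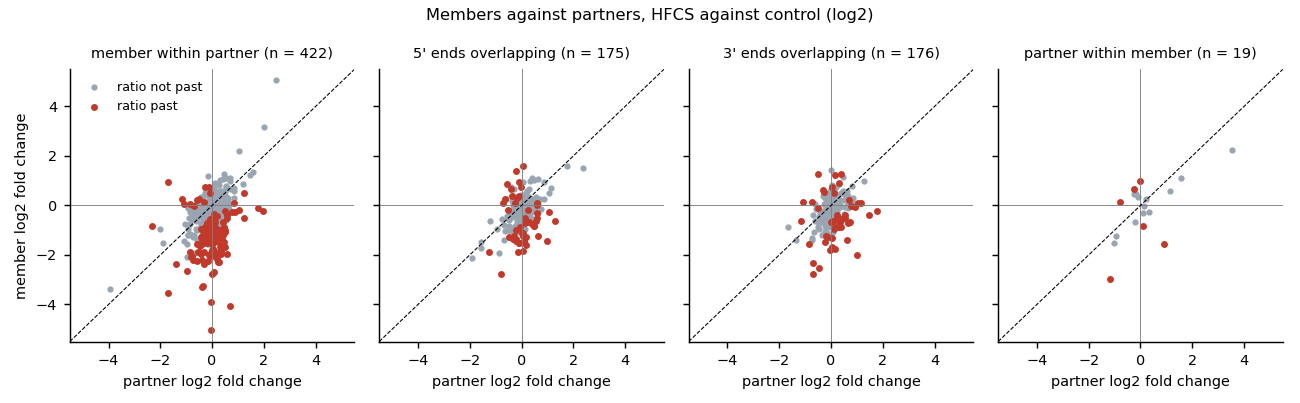
Log2 fold change (HFCS against control, edgeR) of each member against that of its partner, in 4 panels by arrangement with 422, 175, 176 and 19 pairs; red points passed the ratio test and the dashed line marks equal change. Most red points lie below the dashed line, as 204 of the 244 ratios were lower.

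The 6 pairs with the smallest adjusted p in the ratio test were all lower in HFCS. A230050P20Rik (chr9:20868642-20874307), a protein-coding member whose 3′ end overlaps that of Angptl6, an angiopoietin-like secreted protein, had 1336, 1740 and 1557 counts in HFCS and 2107, 1746 and 1937 in control libraries. Scaled to CPM the groups did not overlap, and it fell by 0.40 ± 0.08 on the log2 scale (SE, edgeR adjusted p = 0.00235). Angptl6 went the other way, from 891, 465 and 684 to 1844, 2053 and 2001 counts, and the ratio fell by 1.91 ± 0.14 (limma adjusted p = 1.17e-07).

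Gm17275 (chr1:180802568-180809483), a lincRNA within H3f3a, a gene of the replacement histone H3.3, had 162, 197 and 162 counts in HFCS and 738, 660 and 540 in control libraries. It was lower in all 3 HFCS-labelled libraries and fell by 1.97 ± 0.14 on the log2 scale (SE, edgeR adjusted p = 2.59e-06), with 11.7 ± 1.34 against 45.9 ± 6.89 CPM (mean ± SD, n = 3 each). H3f3a did not pass, at 0.14 ± 0.10 (edgeR adjusted p = 0.293).

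Gm26542 (chr11:50236953-50288839), antisense across the 3′ end of Maml1, a coactivator of Notch signalling, had 17, 24 and 26 counts against 94, 82 and 81. The groups did not overlap and it fell by 2.02 ± 0.21 (SE, edgeR adjusted p = 3.86e-05), while Maml1 rose by 0.99 ± 0.08, from 481, 429 and 498 to 895, 996 and 1064 counts. Gm26724, within Lemd2, a protein of the inner nuclear membrane, fell by 0.99 ± 0.13 with 171, 236 and 205 counts against 430, 381 and 336, and Lemd2 rose by 0.38. The remaining 2 of the 6 pairs were Gm16353 with Myo5a and Gm6736 with Nbas.

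The pairs with overlapping 5′ ends whose promoters are printed above were chosen after their values were seen. They include a pair that fell together, pairs that rose together, and a pair whose member rose and partner fell. 2210408F21Rik (chr6:31220351-31337404) shares 138 bases with Lncpint, a long noncoding RNA known as a target of p53, and had 153, 140 and 160 counts in HFCS and 600, 645 and 629 in control libraries. It fell by 2.12 ± 0.11 on the log2 scale (SE, edgeR adjusted p = 3.98e-07) and Lncpint by 1.90 ± 0.27, and their ratio did not pass (limma adjusted p = 0.639).

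E230016M11Rik (chr6:67036599-67080654) shares 859 bases with Gadd45a, a stress-induced gene of growth arrest and DNA repair, and had 15, 17 and 30 counts against 6, 4 and 9. It rose by 1.60 ± 0.44 (SE, edgeR adjusted p = 0.0125), but without HFCS replicate 3 the adjusted p was 0.0637. Gadd45a rose by 1.76 ± 0.21, from 24, 21 and 27 to 75, 85 and 99 counts. E230013L22Rik, a noncoding RNA annotated to a bidirectional promoter, which shares 782 bases with the small GTPase gene Rab20, had 15, 27 and 37 counts against 8, 10 and 8 and rose by 1.496 ± 0.391 (edgeR adjusted p = 0.00992). Rab20 rose by 2.37 ± 0.12, from 6.07 to 6.53 CPM in control to 29.0 to 34.1 CPM in HFCS libraries.

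2810004N23Rik (chr8:124836945-124863120) is a protein-coding member beside Gnpat, an enzyme of ether lipid synthesis. It shares 88 bases with Gnpat by the listed coordinates and none from the RefSeq start given above. 2810004N23Rik had 463, 535 and 568 counts in HFCS and 421, 327 and 390 in control libraries. It rose by 0.38 ± 0.10 (SE, edgeR adjusted p = 0.00924) while Gnpat fell by 0.38 ± 0.10 (edgeR adjusted p = 0.00868). Their ratio rose by 0.76 ± 0.15 (limma adjusted p = 0.00121).

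Partners were looked up in 4 gene lists. Of 35 genes of inflammation and NF-kB, 1 was the partner of a member. Of 18 genes of oxidant handling, 3 were partners of 4 members, and of 19 osmotic and sugar response genes, 4 were partners of 6. Of 12 regulators often bordered by antisense RNA, 1 was the partner of 1 member. Gm14023, which overlaps the 3′ end of the interleukin gene Il1a, had 10, 23 and 10 counts against 10, 18 and 11. The groups overlapped and it did not pass, with a log2 fold change of 0.06 (edgeR adjusted p = 0.933).

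Of the members opposite oxidant genes, Gm17494 (chr3:122255958-122293720) overlaps the 3′ end of Gclm, a subunit of the enzyme that limits glutathione synthesis. It had 10, 16 and 9 counts against 56, 67 and 46 and fell by 2.34 ± 0.31 on the log2 scale (SE, edgeR adjusted p = 0.000178), and Gclm fell by 0.68. Gm16754, over the 3′ end of Keap1, the sensor that holds NRF2 in check, had 116, 227 and 193 counts against 106, 89 and 104. It rose by 0.75 ± 0.19 (edgeR adjusted p = 0.00924), with HFCS replicate 1 nearest to the controls, and Keap1 did not pass, at 0.04. Gm38560 and Gm47073, both within Txnrd1, had 45, 64 and 36 against 35, 46 and 41 counts and 1, 3 and 5 against 8, 7 and 6. Gm38560 did not pass (edgeR adjusted p = 0.635) and Gm47073 was not tested.

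Of those opposite osmotic and sugar genes, Gm15441 (chr3:96555765-96566801) encloses Txnip, the glucose-induced inhibitor of thioredoxin, and is known as its antisense RNA. It had 10, 8 and 11 counts in HFCS and 18, 28 and 35 in control libraries, with no overlap, and fell by 1.55 ± 0.38 (SE, edgeR adjusted p = 0.00694). Txnip rose by 0.90 ± 0.07, from 3754, 3588 and 3885 to 6780, 7976 and 7367 counts. The ratio of Gm15441 to Txnip fell by 2.37 ± 0.40 on the log2 scale (limma adjusted p = 0.000332).

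Gm12867, within the glucose transporter gene Slc2a1, had 19, 25 and 27 counts against 36, 21 and 47 and did not pass (edgeR adjusted p = 0.14). Gm12868, over the 3′ end of the same gene, had 4, 5 and 7 against 5, 10 and 10. Gm17034, within the hexokinase gene Hk2, had 2, 14 and 3 against 7, 9 and 19. Within the taurine transporter gene Slc6a6, Gm44981 had 3, 9 and 13 against 10, 3 and 2 counts and 4930517G19Rik 4, 7 and 7 against 21, 8 and 9. The last 4 members had too few counts to be tested. Gm15283, which encloses Hif1a, the oxygen-regulated transcription factor, had 5, 14 and 22 counts against 32, 49 and 28 and fell by 1.502 ± 0.427 (SE, edgeR adjusted p = 0.015). Hif1a fell by 1.02, and without control replicate 2 the adjusted p of Gm15283 was 0.0713.

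Some members copy a named gene elsewhere. A search with blastn of member transcripts against all annotated transcripts, made after the counts of Gm6736 had been seen, found a named copy for 159 members (at least 80% identity over at least 70% of the member transcript). Where several named genes matched, the one with the highest summed count was taken, so a closer copy, named or unnamed, may exist. For Gm10284, for example, 89 genes of the count table matched. The identities below are those to the copy taken. Of the 58 with a copy of at least 98% identity, 47 were tested together with it. Their log2 fold changes had a Pearson correlation of 0.74 with those of the copy, or 0.50 without Gm6736, and of -0.07 with those of the partner (n = 39). For identities under 98% the correlation was 0.07 with the copy (n = 57) and 0.37 with the partner (n = 54). At 95% or more it was 0.66 with the copy (n = 66). The limits of 98% and 95% were chosen after the values were seen, and reads of near-identical genes can be assigned to either.

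**Figure D4:**
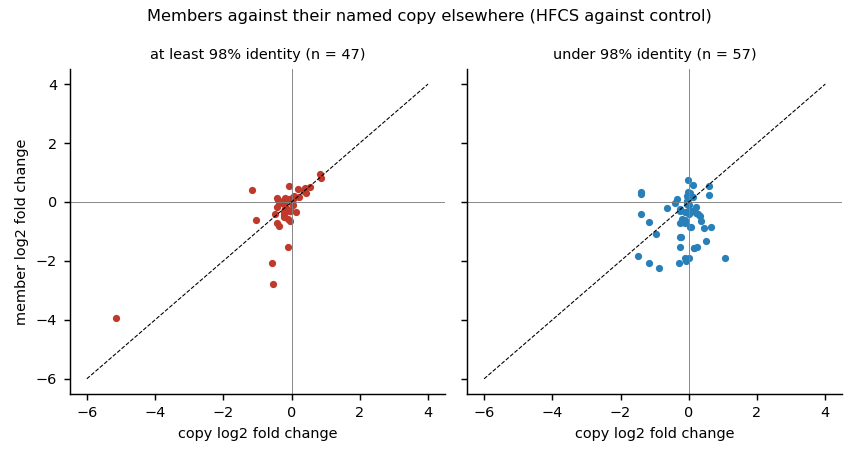
Log2 fold change (HFCS against control, edgeR) of each member against that of its named copy elsewhere, for copies of at least 98% identity (red, n = 47) and under 98% (blue, n = 57); the dashed line marks equal change. The lowest point at left is Gm6736, at -3.92 with Akr1b3 at -5.16.

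Gm6736 had 12, 19 and 10 counts in HFCS and 203, 199 and 192 in control libraries, the groups far apart, and fell by 3.92 ± 0.22 on the log2 scale (SE, edgeR adjusted p = 5.33e-07). Its partner Nbas did not pass, at -0.03. Akr1b3, the copied gene, had 2925, 3256 and 3075 counts against 102859, 107146 and 103515 and fell by 5.16 ± 0.08 (edgeR adjusted p = 5.19e-11). Akr1b3 is known as a gene induced by high osmolarity, and its lower counts are in the libraries labelled as given the sugar syrup, so the directions here hold only as far as the labels do. Of the counts of both genes, Gm6736 held 0.324 to 0.58% in HFCS and 0.185 to 0.197% in control libraries.

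Gm10241, within Yeats2, is identical over its whole transcript to Sumo2, a ubiquitin-like modifier gene. It had 253, 303 and 267 counts in HFCS and 802, 113 and 140 in control libraries, so control replicate 1 stood apart, and it did not pass (log2 fold change -0.42, edgeR adjusted p = 0.578). Without that library its log2 fold change was 1.03 (edgeR adjusted p = 3.12e-05). Sumo2 was low where Gm10241 was high, with 207 counts in control replicate 1 and 970 and 855 in the other controls. The sum of both was 1009, 1083 and 995 in control and 721, 807 and 849 in HFCS libraries.

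Ribosomal protein copies were among the densest members. Gm6136, within Dis3l2, copies Rpl6 at 99.6% identity and had 1865, 2221 and 1847 counts against 2582, 2382 and 2180, a fall of 0.34 ± 0.09 (SE, edgeR adjusted p = 0.0116). It held 8.79 to 11.8% of the counts of both genes in each library, and Rpl6 fell by 0.21. Gm8430, within Rimklb, copies Rps27a and had 592, 617 and 424 against 388, 507 and 380 counts. Its share of both ranged from 2.81 to 16.9%, with control replicate 2 the highest, and it did not pass (edgeR adjusted p = 0.227).

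Gm23935, the 57-base gene printed above, had 18474, 20846 and 11902 counts in HFCS and 15162, 7021 and 7344 in control libraries. The groups overlapped, and the log2 fold change of 0.74 ± 0.28 did not pass (SE, edgeR adjusted p = 0.052). The ratio of Gm23935 to its host gene Zc3h7a did pass, at 0.88 ± 0.27 (limma adjusted p = 0.0183). Without control replicate 1 the log2 fold change of Gm23935 was 1.17 (edgeR adjusted p = 7.45e-05). The 3 libraries high in it, HFCS replicates 1 and 2 and control replicate 1, also had positive values on the second principal component of all genes, at 8.89, 8.23 and 29.3, against -18.9, -14.2 and -13.4 in the others. The identical sequence is shared by 2 other annotated genes, and the one of them in the table, Gm24270, had 173, 215 and 147 counts against 168, 114 and 178. Zc3h7a did not pass, at -0.10. Which RNA the reads of Gm23935 came from was not tested, so its counts and ratio cannot be read as the level of a miRNA.

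The last members named were abundant: 2 of them did not pass and 1 rose. 2810025M15Rik, whose 5′ end overlaps that of Rasal2, a RAS GTPase-activating protein, had 975, 1033 and 1031 counts against 1051, 850 and 910 and did not pass (edgeR adjusted p = 0.724). C330007P06Rik, a protein-coding member on the X chromosome whose 5′ end overlaps that of the ubiquitin-conjugating enzyme gene Ube2a, had 917, 1137 and 1083 against 1074, 1152 and 1184. It did not pass, at -0.20 ± 0.08 (edgeR adjusted p = 0.0568), but Ube2a rose by 0.24 and the ratio fell by 0.44 ± 0.11 (limma adjusted p = 0.00547). A630001G21Rik, which encloses Mir8096, had 980, 1155 and 1200 counts against 703, 650 and 753 and rose by 0.58 ± 0.07 (edgeR adjusted p = 0.000135), with Mir8096 at 0 to 8 counts.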

How the data were processed

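RNA sequencing counts were analysed for 6 libraries, 3 HFCS-labelled and 3 control, grouped by sample title. The deposited file holds raw counts of reads for each gene, with no normalisation. Per the submitters' processing notes, CASAVA, HISAT2 2.0.5 and featureCounts 1.5.0-p3 were used on mm10. The sources used here do not give the annotation release, strand setting or treatment of multi-mapped reads. Symbols and biotypes came from GENCODE M21 (24344 of 24379 genes matched, 23705 with the same coordinates). The union of annotated exons served as gene length. A member's partner was the opposite-strand named gene with the longest overlap.

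Genes were kept by filterByExpr with a minimum count of 10 and tested with edgeR 4.0.16 (R 4.3.3; TMM, glmQLFit, glmQLFTest), adjusted by the Benjamini-Hochberg method over 14360 genes. Ratios log2((member + 0.5)/(partner + 0.5)) were tested with limma 3.58.1 over 2216 opposite-strand pairs, with a variance trend on the lower-counted gene of each pair. Copies were searched with blastn 2.17.0. Both tests were tested on simulated data. Intervals and floors cover counting error only.

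Named were the 6 highest and 6 lowest fold changes (threshold passed, groups parted, at least 1 CPM in 1 group), the 6 densest per kilobase, the 6 smallest ratio p-values, the member with the highest CPM of each arrangement, and members opposite a listed gene. Among these and the cell markers, 1 member and 1 marker are not reported here. Others named were chosen after their values were seen: E230013L22Rik, 2210408F21Rik and 2810004N23Rik. The members and lists were chosen with earlier results of these data known. Alternatives were other scalings, DESeq2 1.42.0, limma-voom, other filters, overlaps and prior counts, a replicate block and each library left out. Repeating the count without members that have a named copy elsewhere was chosen after seeing the data.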

Additional observations from a re-analysis of the deposited data

How the results depend on the processing

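The count of 276 called members stayed within 1.5 times under each scaling, filter, overlap limit and tool tried. DESeq2 gave 41 higher and 192 lower, and library size alone 71 and 198, where the median of all genes shifts to 0.08 on the log2 scale. Members without a named copy elsewhere, an alternative chosen after seeing the data, gave 55 and 196. With each library left out in turn the counts were 39 to 68 higher, 170 to 238 lower and 211 to 306 in all. The ratio called 244 members, and with each library left out 162 to 228, of which 25 to 46 were higher and 132 to 182 lower. The lowest totals, 162 in all and 132 lower, came without control replicate 2, and 25 and 26 higher without HFCS replicates 1 and 3; the cause was not tested. With the replicate number as a replicate block, edgeR called 66 higher and 229 lower and the ratio test 258. The correlations of same-numbered libraries' deviations were 0.167, -0.064 and 0.191. They were not set beside those of differently numbered libraries, so whether the numbers pair the libraries was not settled.

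Of 434 values for the 31 tested named members under alternatives, 405 kept their direction and side of the threshold, 5 lost the threshold, 16 gained it and 8 changed sign. The sign changed, in members that did not pass, for Gm10241 with limma-voom (0.135), with the replicate block (0.0315) and without control replicate 1 (1.03, where leaving out other libraries gave values down to -0.823), for 2810025M15Rik without control replicate 2 (-0.00178, up to 0.114), for Gm14023 without HFCS replicate 2 (-0.419) and control replicates 1 (-0.115) and 3 (-0.0553, up to 0.388), and for Gm38560 without HFCS replicate 2 (-0.0394, up to 0.395); the cause was not tested. The log2 fold change of Gm6136 lost the threshold without HFCS replicate 3 (-0.24). Gm23935 passed with library size alone, limma-voom, no filter and the replicate block. Low counts limit most members.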
